A study of Rattus norvegicus with 6 samples.

Results

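The amyloid precursor processing and clearance genes are 9 genes chosen by name, App, Adam10, Bace1, Psen2, Ncstn, Ide, Mme, Apoe and Clu, out of 30076 gene symbols named in the expression tables of rat prefrontal cortex. All 9 were found by their symbol. Of these, 8 had a row of their own in all 6 libraries and 7 passed the filters of the test, which was run over 10657 genes. Apoe shared a row with its neighbour Clasrp in 1 library and Mme averaged under 1 FPKM (fragments scaled to transcript length and to the mapped fragments of the library, the deposited unit, which allows levels of different genes to be set beside each other). Apoe and Mme were therefore tested in fits that kept such rows or dropped the filter.

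The tissue came from male F344 rats, an inbred strain, aged 18 months. The manipulated group is 3 rats (replicates 4, 5 and 6) that received cranial osteopathic manipulation, in which a practitioner works on the head by hand, over 7 days under isoflurane. The untreated group is 3 rats (replicates 1, 2 and 3) that were put under the same anaesthetic and not manipulated. All rats were aged, with no young group, and each gave 1 library from a coronal slice 1 mm thick. The study asked about cholinergic genes in age-related cognitive decline.

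The amyloid precursor protein, made from App, is a membrane protein of neurons and other cells that can be cut along competing routes. Cleavage by alpha-secretase, chiefly Adam10 in neurons, falls inside the amyloid beta stretch, whereas beta-secretase, Bace1, cuts at its start, and gamma-secretase then frees the peptide from the membrane. Gamma-secretase is a complex of a catalytic subunit such as Psen2, Ncstn, an Aph1 subunit and Psenen. The peptide is broken down by proteases such as Ide and Mme, and Apoe and Clu, secreted largely by astrocytes, are its main carriers in brain fluid. The rodent peptide differs from the human one in sequence and does not ordinarily form plaques in aged rats.

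None of the 9 genes passed an adjusted p of 0.05, with limma on log2(FPKM + 1) and Benjamini-Hochberg adjustment over all tested genes. Over all 10657 genes the same test called 38, which is 0.357%. Among the 7 genes in that fit the median log2 fold change, manipulated minus untreated, was -0.28, beside -0.36 over all tested genes, and 7 of 7 lay below 0, as did 9271 of the 10657. After each library was divided by its median ratio to the others (median-ratio scaling, which set the median of all genes to -0.0037), the median of the 7 was 0.11 and 6 of them lay above 0. On that scale 0.291% of all genes passed, and none of the 9. The sign of these small differences thus turned with the scaling for App, Adam10, Bace1, Ncstn, Ide and Clu, so levels are given below on both scales.

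Whole-series facts bear on each gene. Median FPKM over the tested genes was 4.01, 4.07 and 2.75 in the manipulated libraries and 5.50, 3.98 and 5.17 in the untreated ones, so manipulated replicate 6 was low throughout. The files give no counts. The widths of the deposited FPKM intervals implied 3.45e+07 to 4.39e+07 fragments in manipulated and 3.58e+07 to 3.97e+07 in untreated libraries. Slc17a7, a marker of cortical excitatory neurons, was present at 50.8 to 74.4 FPKM in manipulated and 71.5 to 110.4 FPKM in untreated libraries. The 9 neuron markers that include it summed to 609.4, 1054.6 and 398.0 FPKM in manipulated and 822.3, 940.1 and 856.3 FPKM in untreated libraries. That sum overlapped between the groups as deposited and when scaled. Striatal markers summed to 218.9, 228.7 and 90.5 FPKM in manipulated and 57.0, 54.8 and 82.2 FPKM in untreated libraries. Of the 12 striatal genes listed, 11 were tested, and none was at 0. All 11 had higher means in the manipulated group. Every manipulated library lay above every untreated one for 8 of them as deposited and 11 when scaled. Of the 10657 tested genes, 115 and 1070 did so. Higher past the adjusted p were 0 of the 11 as deposited and 1 when scaled, beside 9 and 10 of all tested genes. Markers of thalamus and hypothalamus summed to 20.2, 20.2 and 83.3 FPKM in manipulated and 148.7, 175.9 and 217.1 FPKM in untreated libraries. Their 10 tested genes all had lower means in the manipulated group, 6 of them past the adjusted p, beside 29 of all tested genes in that direction. As deposited, the striatal sum and the thalamic and hypothalamic sum each separated the groups. After scaling the striatal sum still did, while the thalamic and hypothalamic sum overlapped, with 128.8 in manipulated replicate 6 and 112.3 in untreated replicate 1. In manipulated replicate 6, Avp and Oxt had 23.4 and 46.5 of the 83.3 FPKM as deposited. Gene by gene, 8 of the 10 still lay lower in every manipulated library when scaled, as did 1050 of the 10657 tested genes. Of the 10, 5 were lower past the adjusted p on that scale, beside 21 of all tested genes. The part of these markers in the results below was not tested. In pieces of tissue, fewer cells of a type and less RNA per cell cannot be told apart.

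By mean FPKM over the 6 libraries the order was Apoe, Clu, App, Bace1, Adam10, Ncstn, Psen2, Ide and Mme. Apoe averaged 736.9 FPKM and its lowest library, at 444.0, lay above the highest value of any other member. Clu at 125.6 and App at 104.6 FPKM overlapped in range, as did Bace1 at 9.92, Adam10 at 6.53 and Ncstn at 6.00 FPKM, and likewise Psen2 at 3.07 and Ide at 2.27 FPKM. Mme was lowest at 0.718 FPKM, with its highest library at 1.74 FPKM, below the lowest Ide library at 1.83 FPKM. Among the members ordered here, the secretase genes and proteases were thus many times less abundant as transcripts than App, Apoe and Clu. Psenen, a gamma-secretase subunit outside the set, had 31.5 to 44.1 FPKM in manipulated and 51.4 to 75.7 FPKM in untreated rats.

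**Figure D1:**
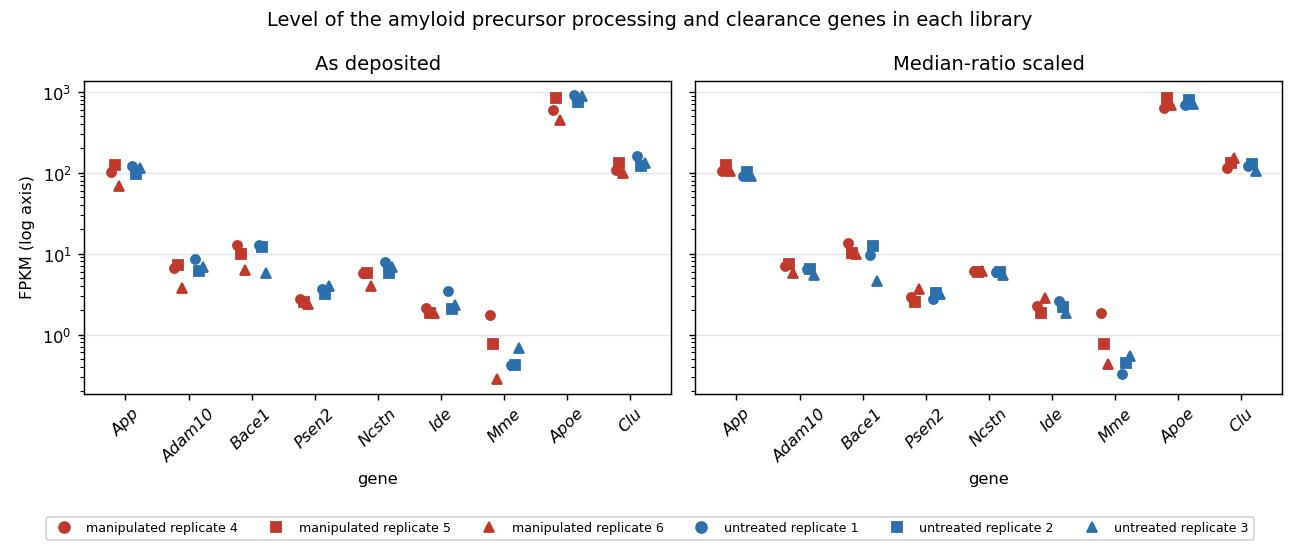
FPKM of each gene in each library on a log axis, as deposited (left panel) and after median-ratio scaling (right panel), with manipulated rats in red and untreated rats in blue. Each point is 1 rat; as deposited, manipulated replicate 6 is the lowest library for 8 of the 9 genes, and after scaling it is the lowest for 0.

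Manipulated replicate 6 was the lowest library for 8 of the 9 genes as deposited and for 0 after scaling. Untreated replicate 1 was the highest for 6 genes as deposited and for 0 after scaling. The within-group spread after scaling, as an SD of log2(FPKM + 1), was 0.056 for Ncstn, lower than for all but 2.44% of tested genes, and 0.11 for App, at the 16.4th percentile. Bace1, with an SD of 0.50 at the 87.4th percentile, and Mme, with 0.37 at the 79.8th, varied most. The median tested gene had 0.20.

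The windows around the annotated transcription start, 250 bases before to 50 after, are shown for these steadiest and most variable genes, with the letters GGGCGG and their reverse complement CCGCCC, the core of a GC box bound by Sp1 family factors, in capitals. They are RefSeq sequences of build GRCr8, which is not the build of the expression tables, given 5′ to 3′ on the strand of the gene. Ncstn lies on the minus strand at chr13:87078790-87079089, App on the minus strand at chr11:37722789-37723088, Bace1 on the plus strand at chr8:55038592-55038891 and Mme on the plus strand at chr2:149872247-149872546.
Ncstn: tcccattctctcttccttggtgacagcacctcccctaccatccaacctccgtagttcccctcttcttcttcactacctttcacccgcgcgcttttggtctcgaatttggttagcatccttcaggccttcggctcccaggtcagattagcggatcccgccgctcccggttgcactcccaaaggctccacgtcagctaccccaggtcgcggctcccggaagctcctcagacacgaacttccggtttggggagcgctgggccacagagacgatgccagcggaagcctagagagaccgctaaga
App: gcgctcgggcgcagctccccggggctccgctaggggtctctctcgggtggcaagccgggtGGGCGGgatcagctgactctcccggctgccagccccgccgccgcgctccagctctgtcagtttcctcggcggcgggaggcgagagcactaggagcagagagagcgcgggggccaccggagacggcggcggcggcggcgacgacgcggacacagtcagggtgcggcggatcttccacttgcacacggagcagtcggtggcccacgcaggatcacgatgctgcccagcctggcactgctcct
Bace1: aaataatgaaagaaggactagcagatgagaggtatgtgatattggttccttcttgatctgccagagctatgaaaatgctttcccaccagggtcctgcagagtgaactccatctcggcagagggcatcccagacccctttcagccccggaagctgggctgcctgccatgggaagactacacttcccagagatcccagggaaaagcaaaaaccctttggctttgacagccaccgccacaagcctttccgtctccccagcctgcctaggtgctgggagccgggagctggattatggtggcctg
Mme: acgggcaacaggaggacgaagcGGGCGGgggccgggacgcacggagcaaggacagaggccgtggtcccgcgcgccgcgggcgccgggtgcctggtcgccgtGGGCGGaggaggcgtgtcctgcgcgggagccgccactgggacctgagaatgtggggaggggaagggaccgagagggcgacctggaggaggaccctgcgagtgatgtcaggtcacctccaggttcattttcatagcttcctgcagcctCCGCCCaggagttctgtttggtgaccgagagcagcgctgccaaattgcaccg

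Both the App window, with 72.7% G and C and 35 CpG dinucleotides, and the Mme window, with 68.7% and 29, were rich in CpG. The Ncstn window had 59.3% and 20 CpG, and the Bace1 window 54.7% and 5, beside medians of 51.7% and 7 over 33469 rat windows. The GC box letters occurred 1 time in the App window, 3 times in the Mme window and 0 times in those of Ncstn and Bace1. In all, 10 windows were found for 8 of the 9 genes, 3 of them for Apoe, and 6 of the 10 held the letters, against 33.1% of all windows. The Apoe windows at 88484650-88484949 and 88484471-88484770 overlap and share the same GC box letters, so that site was counted in both. By gene, 5 of the 8 held the letters. The TATA box letters TATAAA were in none of the 10 windows. A steady and a variable gene stood on each side of that division, and a match of letters says nothing of binding.

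App, the precursor itself (chromosome 11, 24424843 to 24642228, Rnor_6.0), had 100.8, 123.3 and 68.8 FPKM in manipulated rats and 121.9, 97.3 and 115.5 FPKM in untreated rats. The groups overlapped, with means of 97.7 ± 27.4 and 111.6 ± 12.8 FPKM (SD, n = 3 each). The log2 fold change was -0.22 (SE 0.32) with a limma adjusted p of 0.632. After scaling, the values were 106.5, 124.0 and 106.4 in manipulated and 92.1, 102.0 and 92.4 in untreated rats, so that every manipulated library lay above every untreated one. Of all tested genes, 10% stood apart in that direction on that scale. The scaled log2 fold change was 0.23 (SE 0.13, 95% interval -0.08 to 0.54) with an adjusted p of 0.524.

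The paralogs Aplp1 and Aplp2, which lack the amyloid beta stretch, were given beside it. Aplp2 had 36.5, 40.5 and 23.8 FPKM in manipulated and 46.7, 32.9 and 36.7 FPKM in untreated rats. Its scaled difference was 0.23, close to that of App, with groups apart in the same direction, as in 10% of all tested genes. Aplp1, a paralog found mainly in neurons, had 135.1, 154.5 and 95.4 FPKM in manipulated and 203.7, 127.3 and 163.5 FPKM in untreated rats, the last of these from a row joined with Kirrel2. Its scaled difference was 0.10. Neither passed the adjusted p.

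Adam10, the main alpha-secretase of neurons (chromosome 8, 77107423 to 77239154), had 6.64, 7.30 and 3.74 FPKM in manipulated rats and 8.53, 6.14 and 6.83 FPKM in untreated rats. The ranges overlapped, and the lowest value was again that of manipulated replicate 6. The log2 fold change was -0.28 (SE 0.28, adjusted p = 0.508 by limma) as deposited and 0.11 (SE 0.12, adjusted p = 0.713) when scaled. The scaled 95% interval ran from -0.18 to 0.41. Without manipulated replicate 6 the difference as deposited was -0.025. Adam17, an inducible alpha-secretase better known for releasing TNF, was less abundant, at 0.829 to 1.48 FPKM in manipulated and 1.27 to 2.09 FPKM in untreated rats, and its scaled difference was 0.0015.

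Bace1, the beta-secretase (chromosome 8, 50139997 to 50168369), had 12.7, 9.99 and 6.35 FPKM in manipulated rats and 12.8, 12.0 and 5.72 FPKM in untreated rats. Each group held 1 low library, and the pair of low libraries, manipulated replicate 6 and untreated replicate 3, were close to each other. Only in the manipulated one did the low value go with a low library as a whole: after scaling, manipulated rats had 13.4, 10.05 and 9.81 and untreated rats 9.66, 12.6 and 4.57. Untreated replicate 3 then stood well below the other 5. The deposited FPKM interval in that library was 5.22 to 6.21 and did not reach those of the other untreated rats, at 11.9 to 13.6 and 11.2 to 12.9.

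The log2 fold change of Bace1 was -0.04 (SE 0.35, adjusted p = 0.937 by limma) as deposited and 0.36 (SE 0.34, adjusted p = 0.679) when scaled. The scaled 95% interval, -0.47 to 1.20, was the widest of the 9 genes. In every library the row of Rnf214 overlapped the end of the Bace1 row, at 3.38, 6.31 and 5.10 FPKM in manipulated and 6.69, 3.37 and 3.41 FPKM in untreated rats. Whether the library kit marked strand is not given in the sources used here, so reads in the shared stretch cannot be assigned with certainty. The paralog Bace2, which also cuts App within the amyloid beta stretch, was low, at 0.589 to 1.14 FPKM in manipulated and 0.846 to 1.35 FPKM in untreated rats.

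Psen2, a catalytic subunit of gamma-secretase (chromosome 13, 98513570 to 98539254), had 2.77, 2.53 and 2.35 FPKM in manipulated rats and 3.64, 3.13 and 3.98 FPKM in untreated rats. All manipulated values lay below all untreated ones, as they did for 23.7% of all tested genes. Their log2 fold change was -0.36 (SE 0.20) with a limma adjusted p of 0.333, beside the median of -0.36 over all genes. When scaled, the difference was -0.02 (SE 0.13, 95% interval -0.34 to 0.30, adjusted p = 0.965) and the groups overlapped. The deposited interval in untreated replicate 1 was wide, 1.30 to 5.98 FPKM.

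Ncstn, the subunit that admits substrates (chromosome 13, 90451044 to 90467256), had 5.81, 5.84 and 3.93 FPKM in manipulated rats and 7.93, 5.74 and 6.77 FPKM in untreated rats. This gave a log2 fold change of -0.34 (SE 0.24, adjusted p = 0.387 by limma). After scaling the libraries were nearly level, at 6.13, 5.87 and 6.08 in manipulated and 5.99, 6.01 and 5.41 in untreated rats. The scaled difference was 0.05 (SE 0.08), and its 95% interval, -0.16 to 0.25, was the narrowest of the 9 genes.

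Of the other subunits, Psenen, needed for the complex to mature, had 34.9, 44.1 and 31.5 FPKM in manipulated and 58.4, 51.4 and 75.7 FPKM in untreated rats. Its log2 fold change was -0.73 (SE 0.30, adjusted p = 0.326), and -0.28 (SE 0.17) when scaled. Aph1a, the common scaffold subunit, had 7.07, 6.89 and 10.7 FPKM in manipulated and 10.9, 8.61 and 10.8 FPKM in untreated rats, where the value of manipulated replicate 6 comes from a row joined with Otud7b. Aph1b, the alternative scaffold subunit, had 3.76, 5.48 and 8.26 FPKM in manipulated and 17.01, 19.0 and 9.67 FPKM in untreated rats. As deposited its groups did not overlap, as in 23.7% of all tested genes, and its difference was the furthest from 0 of the tested pathway genes, -1.25 (SE 0.34), with a limma adjusted p of 0.270. When scaled the difference was -0.83 (SE 0.47) and the groups overlapped. The Aph1b value is uncertain, since its row ran over 72473611 to 72629265 on chromosome 8 and RefSeq lists the copies Aph1bl1 and Aph1bl2 beside it, between which fragments could have been split.

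**Figure D2:**
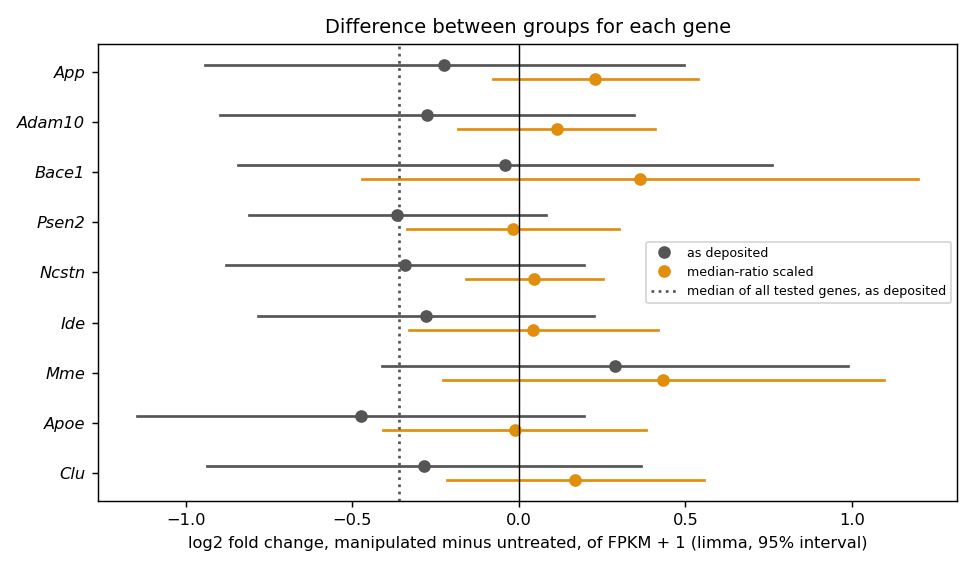
Log2 fold change of each gene, manipulated minus untreated, with its 95% interval from limma, as deposited (grey) and after median-ratio scaling (orange), with Mme and Apoe from the fits that could hold them. All 18 intervals include 0, and the dotted line marks the median of all tested genes as deposited, -0.36.

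Ide, a zinc metalloprotease that degrades insulin and amyloid beta (chromosome 1, 255914447 to 256013753), had 2.12, 1.85 and 1.83 FPKM in manipulated rats and 3.42, 2.07 and 2.32 FPKM in untreated rats. The ranges overlapped. The highest value, in untreated replicate 1, was also the least certain, with a deposited interval of 0 to 7.69 FPKM. The log2 fold change was -0.28 (SE 0.22, adjusted p = 0.426 by limma) and 0.04 (SE 0.15, 95% interval -0.33 to 0.42, adjusted p = 0.927) when scaled.

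Mme, or neprilysin, a membrane metalloprotease that degrades amyloid beta outside the cell and is abundant in rodent striatum (chromosome 2, 153799449 to 153881523), had 1.74, 0.761 and 0.279 FPKM in manipulated rats and 0.426, 0.419 and 0.676 FPKM in untreated rats. The manipulated group held both the highest and the lowest library. The deposited interval of manipulated replicate 4, 1.46 to 2.03 FPKM, lay above those of the other 5 libraries, and manipulated replicates 4 and 6 were further apart than any pair of untreated rats. In the fit without a filter, where 0.102% of genes were called, the log2 fold change was 0.29 (SE 0.29, adjusted p = 0.563), and 0.43 (SE 0.26, 95% interval -0.23 to 1.10, adjusted p = 0.618) when scaled. With a pseudocount of 0.1 in place of 1 the difference as deposited was 0.50, and without manipulated replicate 4 it was -0.0018.

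Both Mme and the striatal marker sum were higher in manipulated replicates 4 and 5 than in the other 4 libraries, as deposited and when scaled. The striatal sums of replicates 4 and 5 were close to each other, at 218.9 and 228.7 FPKM as deposited and 231.2 and 230.0 when scaled, where Mme differed, at 1.74 and 0.761 FPKM. Choroid plexus markers summed to 270.5, 1312 and 1069 FPKM in manipulated and 522.6, 496.2 and 488.8 FPKM in untreated libraries, and were lowest where Mme was highest. Their part in the spread of Mme was not tested.

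**Figure D3:**
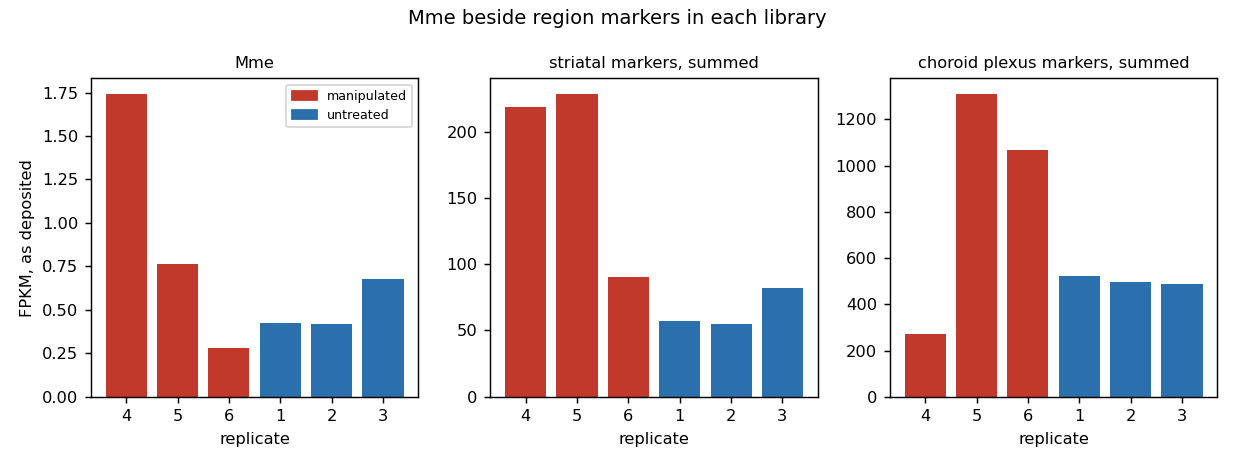
FPKM of Mme (left panel), of 11 striatal markers summed (middle panel) and of 9 choroid plexus markers summed (right panel), with 1 bar for each library, manipulated rats in red and untreated rats in blue. Mme reaches 1.74 FPKM in manipulated replicate 4, and the striatal sum is high, at 218.9 and 228.7 FPKM, in manipulated replicates 4 and 5.

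Apoe, the lipid carrier made chiefly by astrocytes (chromosome 1, 80612895 to 80617057), had 597.6, 841.4 and 444.0 FPKM in manipulated rats and 907.8, 751.6 and 879.1 FPKM in untreated rats. The value of 841.4, in manipulated replicate 5, belongs to a row joined with Clasrp, a splicing-related gene that had 6.69 to 11.4 FPKM in the other 5 libraries, and that row alone made the groups overlap. In the fit that gave joined rows to each gene they name, where 0.181% of genes were called, the log2 fold change was -0.47 (SE 0.29, adjusted p = 0.372 by limma), and it was -0.71 without manipulated replicate 5 and -0.25 without manipulated replicate 6. When scaled it was -0.01 (SE 0.16, 95% interval -0.41 to 0.38, adjusted p = 0.985). Astrocyte markers summed, on the scaled values, to 563.1, 595.2 and 477.1 in manipulated and 575.9, 534.9 and 570.2 in untreated libraries, also without separating the groups. The 8 markers in that sum did not all follow it. On the scaled values 3 lay lower and 1 higher in every manipulated library, as did 1050 and 1070 of the 10657 tested genes.

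Clu, or apolipoprotein J, a secreted chaperone (chromosome 15, 42640146 to 42665857), had 109.2, 130.5 and 99.5 FPKM in manipulated rats and 160.6, 121.0 and 132.5 FPKM in untreated rats. The ranges overlapped. The log2 fold change was -0.28 (SE 0.29, adjusted p = 0.514 by limma) as deposited. When scaled it was 0.17 (SE 0.16, 95% interval -0.22 to 0.56, adjusted p = 0.678), and the highest library was then manipulated replicate 6, at 153.8. The deposited intervals of Apoe and Clu were 4.21 to 4.29% and 4.44 to 4.69% of the value on each side in every library, whatever its level.

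Ratios of genes within a library do not depend on its scaling. Adam10 over Bace1, alpha- against beta-secretase, was 0.524, 0.731 and 0.588 in manipulated and 0.667, 0.511 and 1.19 in untreated rats. The value of 1.19 is that of the library with low Bace1, and without it the mean log2 difference, -0.29, became 0.06. Apoe over Clu was 5.47, 6.45 and 4.46 in manipulated and 5.65, 6.21 and 6.63 in untreated rats. Ide over Mme ran from 1.22 to 6.57 in manipulated and from 3.42 to 8.04 in untreated rats. The groups overlapped in each of these pairs.

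Apoe over App was 5.93, 6.82 and 6.45 in manipulated rats and 7.45, 7.73 and 7.61 in untreated rats. Every manipulated library lay below every untreated one. The mean log2 difference was -0.25, with within-group SDs of 0.10 and 0.03, and it ranged from -0.30 to -0.20 as each library in turn was left out. Of the 9904 other tested genes above 0 in every library, 26% also had a ratio to App that was lower in all manipulated libraries, and the median difference over the 9904 was -0.24, so the Apoe value was close to that of the median gene. Among the other members Ncstn over App was lower throughout as well, at 0.0576, 0.0473 and 0.0571 in manipulated and 0.0651, 0.0590 and 0.0586 in untreated rats.

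**Figure D4:**
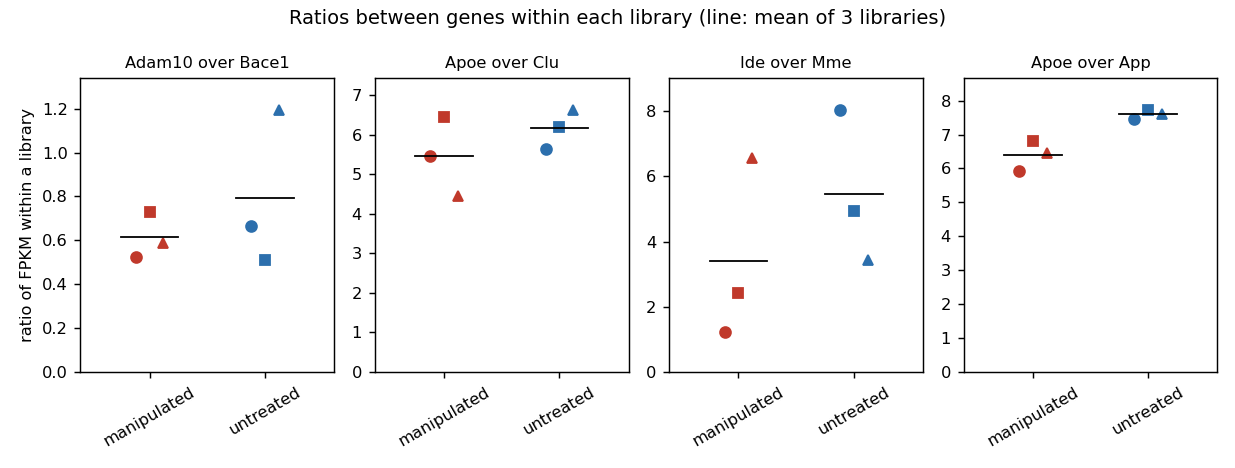
Ratio of FPKM between pairs of genes within each library, with manipulated rats left of untreated rats in each panel, points for rats and a line for the mean of 3. The groups are apart only for Apoe over App, with 5.93 to 6.82 in manipulated and 7.45 to 7.73 in untreated rats.

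The wider pathway was taken as 8 lists by role, with 123 genes, of which 117 were named in the files and 86 tested. None of the 86 passed the adjusted p, the smallest being 0.270 as deposited and 0.291 when scaled. At an unadjusted p under 0.05, 11 were lower and 1 higher as deposited, where 13.6% and 1.46% of all tested genes were, and 4 were lower and 10 higher when scaled, where 4.8% and 6.46% were. The median log2 fold change of the 86 was -0.29 as deposited and 0.09 when scaled. No list had a member past the adjusted p in either direction on either scale.

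By role, the 11 tested genes of the precursor family had a median of -0.32 as deposited and 0.10 when scaled. Itm2b, whose product binds the precursor and inhibits its processing, had 58.4, 65.3 and 44.2 FPKM in manipulated and 96.3, 67.8 and 83.5 FPKM in untreated rats, a difference of -0.56 (SE 0.30). Apba2, an adaptor that binds the tail of the precursor, differed by -0.53 (SE 0.28). Both were near 0 when scaled, at -0.10 each.

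The 13 alpha-secretase genes had medians of -0.26 and, scaled, 0.11, and the 8 beta-secretase genes -0.27 and 0.11. Tspan33, a tetraspanin that guides Adam10, differed by -0.50 (SE 0.21), and Adam15, a related metalloprotease, by -0.47 (SE 0.22). Rtn4 and Rtn3, reticulons that bind and restrain Bace1, differed by -0.50 (SE 0.35) and -0.42 (SE 0.32). When scaled, these 4 lay between -0.12 and 0.04.

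The 8 gamma-secretase genes had medians of -0.39 as deposited and 0.0045 when scaled. Besides the subunits, Rer1, which retains unassembled subunits early in the secretory route, differed by -0.63 (SE 0.30), and Tmed10, a modulator of the complex, by -0.41 (SE 0.32). Scaled, they were at -0.20 and 0.03.

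The 12 degradation genes had medians of -0.26 and, scaled, 0.08. Ace, angiotensin-converting enzyme, which can cleave amyloid beta and is abundant in rodent striatum and choroid plexus, had 3.04, 5.82 and 5.34 FPKM in manipulated and 3.19, 2.56 and 2.00 FPKM in untreated rats. It differed by 0.65 (SE 0.26, adjusted p = 0.326 by limma), and by 1.01 (SE 0.31, adjusted p = 0.314) when scaled. The groups then no longer overlapped, with manipulated higher, as in 10% of all tested genes. The choroid plexus marker sum was likewise highest in manipulated replicates 5 and 6, and its part in the Ace values was not tested. Pitrm1, a mitochondrial protease that degrades amyloid beta, differed by -0.53 (SE 0.23), and by -0.16 when scaled.

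Carrier and lipidation genes, 11 tested, had medians of -0.22 and, scaled, 0.17, which is the value of Clu itself. Apoc1, the apolipoprotein gene next to Apoe in the genome, had 10.3, 16.5 and 12.5 FPKM in manipulated and 25.02, 20.8 and 26.2 FPKM in untreated rats, a difference of -0.85 (SE 0.28, adjusted p = 0.309 by limma) and of -0.41 (SE 0.21) when scaled. Abca7, a lipid transporter, had 1.15, 0.889 and 1.03 FPKM in manipulated and 2.44, 1.73 and 3.12 FPKM in untreated rats, a difference of -0.74 (SE 0.24, adjusted p = 0.309) and of -0.45 (SE 0.17) when scaled. As deposited the groups did not overlap in either gene, as in 23.7% of all tested genes. On the scaled values they overlapped for Apoc1 and stayed apart for Abca7, with manipulated lower, as for 1050 of the 10657 tested genes. The deposited row of Apoc1 lies on an unplaced scaffold.

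Uptake and transport genes, 11 tested, had medians of -0.23 and, scaled, 0.13. Lrp8, a receptor for Apoe and reelin, had 2.91, 2.80 and 1.85 FPKM in manipulated and 6.57, 4.61 and 4.05 FPKM in untreated rats, a difference of -0.78 (SE 0.24, adjusted p = 0.309 by limma) and of -0.43 (SE 0.15) when scaled. Scarb1, a lipoprotein receptor, differed by -0.56 (SE 0.24), and by -0.20 (SE 0.19) when scaled.

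The 12 endosomal sorting genes, which decide where App and Bace1 meet, had medians of -0.46 and, scaled, -0.06, the lowest of the 8 lists. Vps29, a retromer subunit, had 13.0, 19.1 and 8.76 FPKM in manipulated and 30.5, 20.7 and 31.5 FPKM in untreated rats, a difference of -1.002 (SE 0.34, adjusted p = 0.309 by limma) and of -0.57 (SE 0.16, adjusted p = 0.291) when scaled. Cd2ap, an adaptor of endocytosis, differed by -0.59 (SE 0.22), and by -0.24 (SE 0.08) when scaled.

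**Figure D5:**
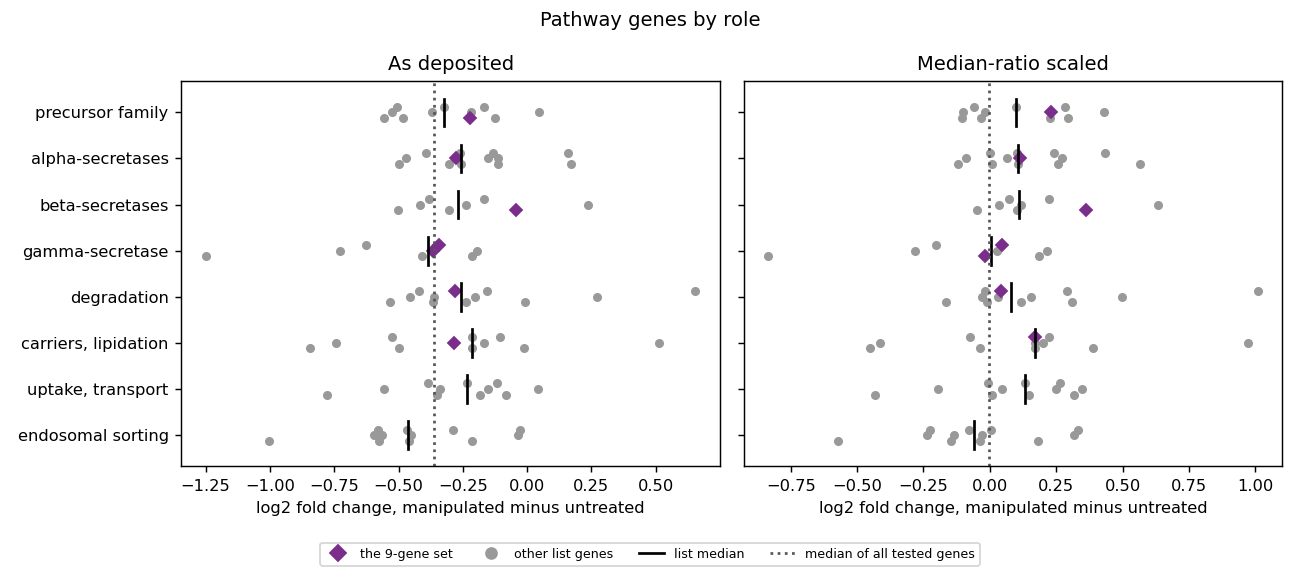
Log2 fold change, manipulated minus untreated, of the 86 tested pathway genes by role, as deposited (left panel) and after median-ratio scaling (right panel), with list medians as black bars and the tested genes of the 9-gene set as purple diamonds. The dotted line is the median of all tested genes; the list medians lie between -0.46 and -0.22 as deposited and between -0.06 and 0.17 when scaled.

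For each of the 9 genes the tested genes with the closest profile over the 6 libraries were sought. Closeness was the root mean square difference of centred log2 values, as deposited and without median-ratio scaling. Each profile therefore includes the shift of each library as a whole, and closeness after scaling was not tested. The closest were Gab1 and Sf3a1 to Ncstn, at 0.018 and 0.025, Tmem151b and Esam to Clu, at 0.024 and 0.028, and Oxsr1 and G3bp2 to Adam10, at 0.030 and 0.032. Eogt and Kdm3a were closest to Ide, at 0.032 and 0.038. LOC683674 and Pigo were closest to Psen2, at 0.040 and 0.040, LOC100912596 and Dda1 to App, at 0.041 and 0.042, and Cep44 and Hnrnpf to Apoe, at 0.047 and 0.048. No tested gene came nearly as close to Bace1, for which Nt5dc1 and Serinc5 were at 0.13 and 0.13, or to Mme, for which the closest gene with a usual name, Boc, was at 0.12. None of these was another member of the set, but Apoe and Mme were not among the tested genes searched.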

How the data were processed

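RNA of 6 rats was sequenced, 3 manipulated and 3 untreated. The authors deposited FPKM per gene with an interval and a status, per the file headers, and the submitters' processing notes name STAR 2.7.3a, Cufflinks and the rat build Rnor_6.0. Annotation, strandedness, read totals and the version of Cufflinks: not given in the sources used here. Because each library is scaled to its own total, abundant transcripts lower the FPKM of all others.

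Rows were matched by symbol, and symbols that shared a row (3254), had rows at separate places, lacked a row somewhere or had a failed estimate were left out, which kept 26641, of which 10657 had a mean of at least 1 FPKM. The test was limma (version 3.58.1, under R 4.3.3) on log2(FPKM + 1), allowing a trend of variance with the mean, two-sided, with Benjamini-Hochberg adjustment at 0.05 and no covariate, since the labels give no batch. The test was checked on simulated data drawn for each gene on its own. No shift of a whole library was simulated, so the check does not cover one. A log2 difference on this scale understates the change of low genes. Fragment totals were implied from intervals of unnamed loci of 400 to 800 bases, taken as 2 Poisson SDs on each side, and are not read totals; they cover counting error only. Python 3.11.15 was used with numpy 2.4.6, pandas 2.3.3 and, for figures, matplotlib 3.10.9.

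The members and lists were chosen with earlier results of these data known, so no test over the lists is given. The genes named are the members, their paralogs and partner subunits, any pathway gene past the adjusted p, in each list the 2 others with the smallest p, and the 2 closest profiles of each member; a gene with a clone name was not named, and some items under this rule are not reported here. Alternatives covered the pseudocount, filter, scaling, variance model, library weights, joined rows and leaving out each library; the fits with joined rows and with scaling but no filter were added after the data were seen.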

Additional observations from a re-analysis of the deposited data

How the results depend on the processing

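No alternative run brought any of the 7 members that passed the filters past the adjusted p of 0.05, and their lowest was 0.0773, for Psen2 with library weights. Mme and Apoe have an adjusted p only in the fits without a filter or with joined rows, and under the other alternatives they are values with no test. The number of genes called over all those tested, 38, was 20 with no filter on low values, 84 with a robust prior, 940 with library weights, 430 among genes above 0 in all libraries, 24 with joined rows given to each gene, and 28 to 56 with a library left out. The number of pathway genes called, 0 of 86, was 6 with library weights (Aph1b, Psenen, Apoc1, Abca7, Vps29 and Cd2ap, all lower). With those weights 940 of the 10657 tested genes were called. The number was 2 among genes above 0 in all libraries (Aph1b and Abca7), where 430 genes were called in all. The median of the members, -0.28, was 0.11 with median-ratio and 0.097 with upper-quartile scaling, and -0.39 to -0.16 with a library left out.

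Signs turned under median-ratio scaling for App (0.23), Adam10 (0.11), Bace1 (0.36), Ncstn (0.047), Ide (0.044) and Clu (0.17). With upper-quartile scaling the same 6 genes were at 0.21, 0.097, 0.35, 0.031, 0.030 and 0.15, and with median-ratio scaling and no filter, added after the data were seen, at 0.24, 0.12, 0.37, 0.055, 0.050 and 0.18. Median-ratio scaling moved the median of all tested genes from -0.36 to -0.0037. The factors by which the libraries were divided were 0.947, 0.9945 and 0.6471 in manipulated and 1.324, 0.9539 and 1.251 in untreated rats. The cause of the differences between these factors was not tested. Bace1 was 0.52 with library weights; the cause was not tested. With a library left out, App ranged from -0.41 to 0.0060 and was above 0 without manipulated replicate 6. Bace1 ranged from -0.37 to 0.20, and was above 0 without manipulated replicate 6, untreated replicate 1 (0.15) or untreated replicate 2 (0.10). Adam10 ranged from -0.43 to -0.025 (without manipulated replicate 6), Ncstn from -0.44 to -0.19 (without manipulated replicate 6), Ide from -0.39 to -0.12 (without untreated replicate 1), Clu from -0.39 to -0.17 (without untreated replicate 1), Apoe from -0.71 to -0.25 and Mme from -0.0018 to 0.55 (without manipulated replicate 6).

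Ide over Mme gave no value at the lower bounds, where a bound was 0. No paired analysis was possible because the groups share no replicate numbers. The files hold no counts, so precision at low levels, as for Mme and Ide, is known only from the deposited intervals.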
